A study of Ictidomys tridecemlineatus with 31 samples.

Results

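The genes described here encode the nuclear subunits of the mitochondrial respiratory chain and of ATP synthase, measured by RNA-Seq in kidneys of thirteen-lined ground squirrels, Ictidomys tridecemlineatus. Members were taken by gene symbol: the NDUFA, NDUFB, NDUFC, NDUFS and NDUFV series, SDHA to SDHD, symbols beginning with UQCR or ATP5, and COX symbols with a digit from 4 to 8 followed by a letter from A to C, which COX4I1 does not meet. The rule found 76 rows and 73 symbols among 12863 genes, and where a symbol had several rows the one with the highest mean was kept. By complex, the 73 members comprised 35 of complex I, 4 of complex II, 6 of complex III, 11 of complex IV and 17 of complex V. Ndufa4 was counted with complex IV, where its protein belongs, and COX7A2L, a factor that joins complexes, was counted there by its symbol. Atp5s, counted with complex V by its symbol, is now called DMAC2L. Atp5g2 and ATP5MC2 are separate rows under an older and a newer name of the same gene.

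Oxidative phosphorylation passes electrons from NADH at complex I and from succinate at complex II through ubiquinone to complex III, then by cytochrome c to complex IV and on to oxygen. Complexes I, III and IV move protons across the inner membrane, and complex V, the ATP synthase, uses the gradient to make ATP. Most subunits come from nuclear genes and the rest from mitochondrial DNA, whose reads the authors removed before quantification, so the mitochondrially encoded subunits were not analysed here. Kidney tubule cells, those of the proximal tubule in particular, are rich in mitochondria, which supply ATP for reabsorption. In torpor, body temperature and metabolic rate of a hibernator fall deeply, and each arousal restores them within hours.

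Each of the 31 samples was the kidney of 1 animal (17 females and 14 males), with no treatment and no genetic change, placed by body temperature and season in 1 of 6 states. SA (summer active) squirrels were warm and fattening, and SpD (spring dark) squirrels were warm again after hibernation while still housed in the hibernaculum. The other 4 states belong to the hibernation season: IBA (interbout aroused) animals had just rewarmed, Ent (entrance) animals were cooling into torpor, EAr (early arousing) animals were cold and starting to rewarm, and LAr (late arousing) animals were further along in rewarming. The labels give no exact ages. Libraries were made in 2 experiments with different kits, the first with 9 animals (3 each of IBA, Ent and SpD) and the second with 22, so SA, EAr and LAr were sampled in experiment 2 only.

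Values are log2 counts after the regularized log (rlog) transformation and batch correction by the authors, and the read depth behind them is unknown. They are not scaled by gene length, so levels are compared between animals and not between genes. The study left out K137 (SA) and K113 (LAr) as outliers on these same expression values, and the tests below used the remaining 29 animals (SA, n = 4; the other states, n = 5) with counts of calls on all 31 given beside them. Groups are said to overlap or not among these 29 animals, and K137 and K113 are described apart. The differential tests were limma fits over all genes with state, sex and experiment, and adjusted p-values were Benjamini-Hochberg values over 12863 genes. Calls are given at an adjusted p below 0.001, the study's threshold, and below 0.05. All 12 proximal tubule markers were in the table, whereas 0 of 5 adrenal cortex markers were.

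SA kidneys had the highest mean for 52 of the 73 members, and IBA kidneys had the lowest for 38, followed by EAr with 30. The span between the highest and the lowest state mean of a member ranged from 0.13 to 0.57 on the log2 scale, with a median of 0.28, and 0 of 73 members reached a 2-fold span. In the test across the 6 states, 3 members were called at an adjusted p below 0.001, 4.11% of the members where 9.34% of all genes were called. At 0.05, 29 members (39.7%) were called against 46.1% of all genes. By this test alone the members were thus called no more often than other genes. On all 31 animals 0 members were called at 0.001 and 10 at 0.05.

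**Figure D1:**
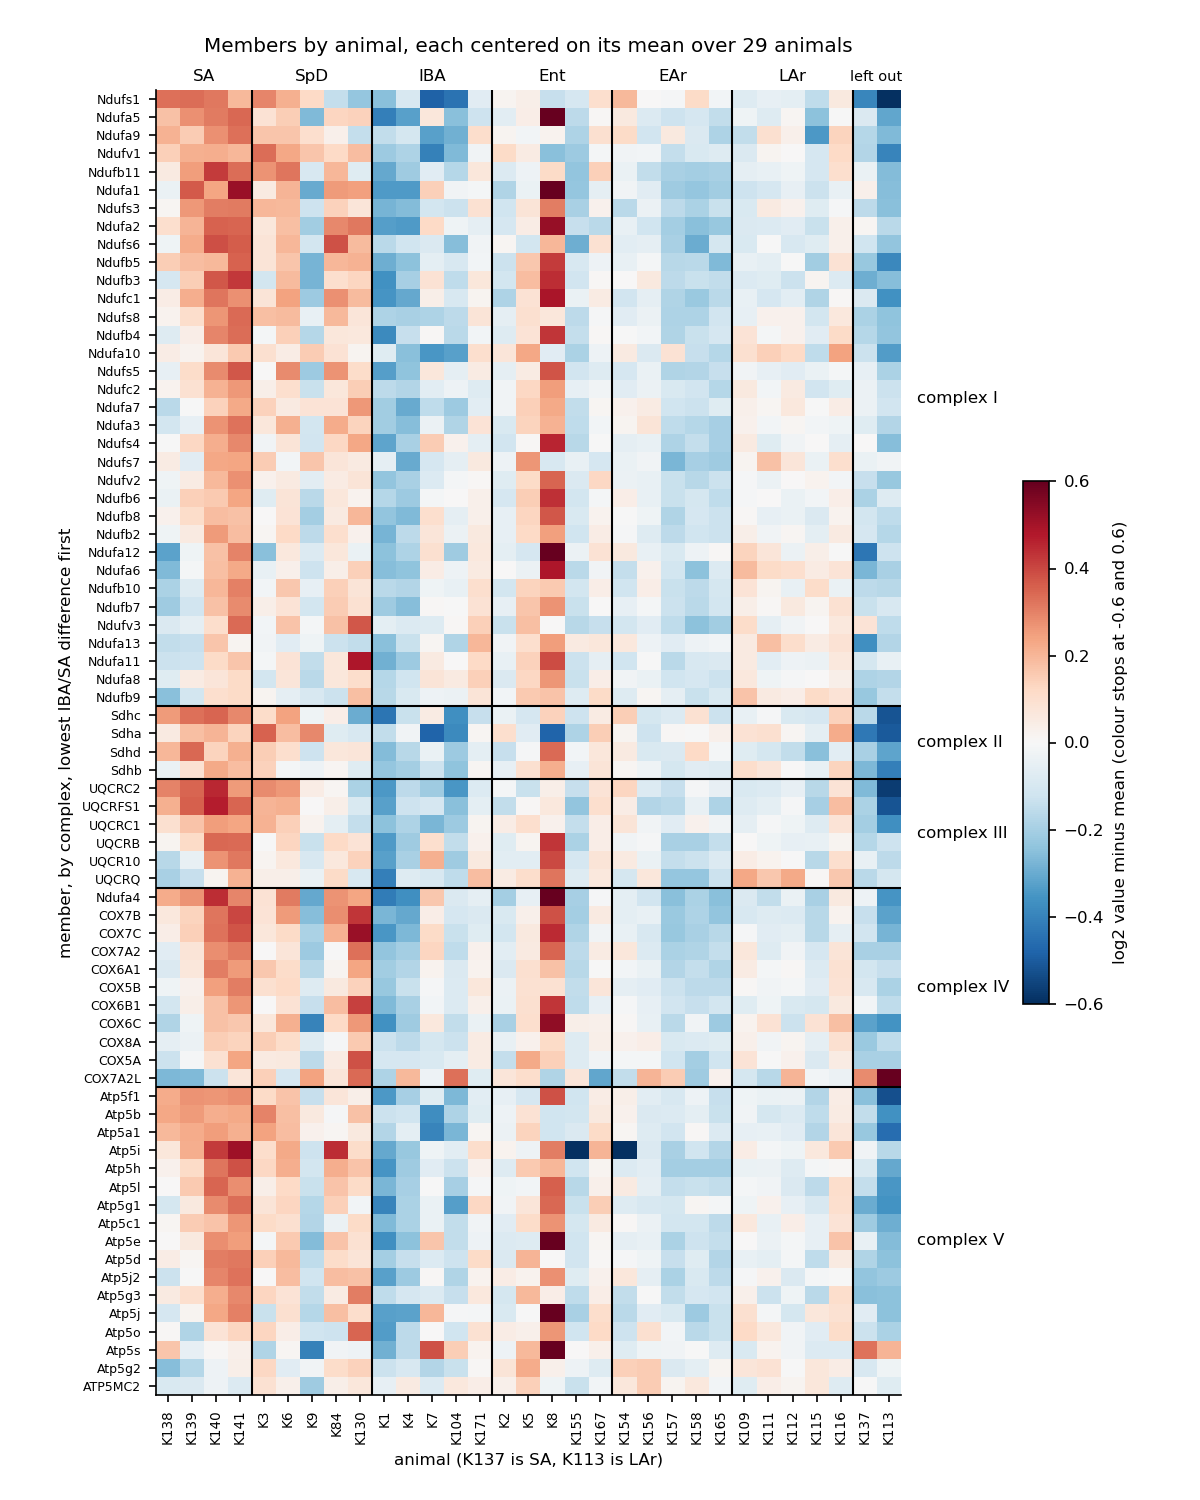
Deposited log2 value of 72 of the 73 members (rows, by complex) in each of 31 animals (columns, by state), minus the member's mean over 29 animals, with K137 and K113 set apart at the right. SA columns are mostly above the mean and IBA and EAr columns mostly below it, while K8 (Ent) is high for most members but low for Sdha.

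Of the comparisons between 2 states, interbout aroused against summer active kidneys had the most members called. Members were lower in IBA than in SA for 70 of 73 symbols, with a median log2 difference of -0.27, at which a transcript decreased by 17.3%, where the median of all genes was 0.03. Of the members, 6 were called lower at an adjusted p below 0.001 (8.22%, against 3.15% of all genes in either direction) and 32 at 0.05 (43.8%, against 12.5% of all genes called lower), and 0 were called higher. In 22 members (30.1%) the SA and IBA animals did not overlap, compared with 18.8% of all genes. In whole kidney RNA, fewer cells of a type and less RNA per cell cannot be told apart.

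The 6 members with the lowest adjusted p, those called at 0.001, included Ndufs1 of complex I, Sdhc of complex II and UQCRC1, UQCRC2 and UQCRFS1 of complex III. All 6 belong to a list of 22 subunits called core here, which was chosen with earlier results known. It leaves out Ndufs3 and holds small subunits such as COX7C, so it does not divide catalytic from accessory subunits. By size of the decrease, Ndufa5, Atp5f1 and Ndufa4, which are not on that list, lay beyond UQCRC1. Of these core subunits 15 were lower in IBA at 0.05, with a median difference of -0.35, and of the other 51 members 17 were, with a median of -0.23. The difference between the core and the other members was not tested.

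Complex I takes electrons from NADH. Of its 35 members 16 were lower in IBA than in SA at 0.05, 2 of them at 0.001, with a median log2 difference of -0.25. Ndufs1 (gene17561), the large iron-sulfur subunit of the NADH-oxidizing arm, had log2 values of 13.18, 13.30, 13.31 and 13.32 in SA and 12.50, 12.54, 12.73, 12.89 and 12.92 in IBA. The IBA animals thus lay below all 4 SA animals. Values in SpD were 12.75, 12.84, 13.10, 13.20 and 13.28, and those in Ent were 12.84, 12.89, 13.00, 13.02 and 13.09. EAr animals had 12.97, 12.98, 12.99, 13.10 and 13.18 and LAr animals 12.83, 12.91, 12.93, 12.94 and 13.04. The SpD animals spanned most of the distance between SA and IBA, the lowest Ent and LAr animals reached the upper part of the IBA range, and the EAr animals lay above it. Ndufs1 was lower in IBA than in SA, with a log2 difference of -0.63 ± 0.1 (SE; adjusted p = 0.00021), so that its transcript decreased by 35.6%. K137 had 12.59 and K113 12.35, and with both included the adjusted p was 0.035. Fitted differences are adjusted for sex and experiment and can depart from those of the listed values. Without the experiment term the IBA/SA difference of Ndufs1 was -0.56. That of Atp5h in complex V moved the other way, from -0.34 to -0.37.

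Ndufv1 (gene15966), the subunit that binds FMN and NADH, had 14.10, 14.16, 14.18 and 14.18 in SA and 14.08, 14.13, 14.15, 14.20 and 14.30 in SpD. IBA values were 13.55, 13.70, 13.74, 13.78 and 13.94. The 4 SA and 5 SpD animals tested lay above every IBA animal, and they overlapped each other. Ent animals had 13.71, 13.75, 13.95, 14.01 and 14.08, EAr animals 13.82, 13.87, 13.89, 13.94 and 13.95 and LAr animals 13.86, 13.88, 13.96, 13.98 and 14.08. The highest Ent and LAr animals were about level with the lowest SpD animal. K137 had 13.79 and K113 13.57, both within or near the IBA range. Ndufv1 was the member of complex I with the lowest adjusted p across states (0.00071). It was lower in IBA than in SA, with a log2 difference of -0.43 ± 0.089 (SE; adjusted p = 0.0016) and higher in SpD than in IBA, with a log2 difference of 0.43 ± 0.075 (SE; adjusted p = 0.00076), the only member called at 0.001 in that comparison. The 2 adjusted p-values on all 31 animals were 0.037 and 0.007.

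Among other core subunits of complex I, Ndufs8, an iron-sulfur subunit, had an IBA/SA difference of -0.32 (adjusted p = 0.0042). Ndufs7 and Ndufv2, which also carry iron-sulfur clusters, had differences of -0.22 and -0.21 that were not called (adjusted p = 0.077 and 0.056). Of the accessory subunits, which surround the core, Ndufa5 had the largest called decrease (-0.52 ± 0.13, SE; adjusted p = 0.0056). Ndufa8, Ndufa11 and Ndufb9 had differences between -0.02 and 0.01.

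Complex II, succinate dehydrogenase, also serves the tricarboxylic acid (TCA) cycle and is built from nuclear genes alone. All 4 of its subunits were lower in IBA than in SA at 0.05, with a median log2 difference of -0.38. Sdhc (gene24490), a membrane anchor, had values of 13.82, 13.86, 13.90 and 13.92 in SA and 13.13, 13.20, 13.43, 13.44 and 13.62 in IBA, without overlap. SpD animals had 13.27, 13.54, 13.61, 13.68 and 13.81, and Ent animals 13.45, 13.47, 13.53, 13.62 and 13.71. EAr animals had 13.44, 13.47, 13.49, 13.66 and 13.72 and LAr animals 13.47, 13.48, 13.53, 13.56 and 13.71. The lowest SpD value, that of K130, lay within the IBA range, and 2 of 5 SpD animals lay above every IBA animal. Sdhc was lower in IBA than in SA, with a log2 difference of -0.58 ± 0.11 (SE; adjusted p = 0.00054) and higher in SA than in SpD, with a log2 difference of 0.36 ± 0.11 (adjusted p = 0.033). K137 had 13.41 and K113 13.05, and with both included the adjusted p in IBA/SA was 0.019.

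Sdhd, the other membrane anchor, and Sdhb, the iron-sulfur subunit, had IBA/SA differences of -0.38 and -0.30 (adjusted p = 0.0034 and 0.0064). Sdha, the flavoprotein that oxidizes succinate, had 15.26, 15.33, 15.38 and 15.40 in SA and 14.72, 14.82, 15.05, 15.18 and 15.21 in IBA, again without overlap, and a difference of -0.38 ± 0.13 (SE; adjusted p = 0.044). On all 31 animals 1 of the 4 subunits, Sdhc, was called at 0.05.

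Complex III, the cytochrome bc1 complex, had 4 of 6 members lower in IBA than in SA at 0.05, 3 of them at 0.001, and a median log2 difference of -0.37. UQCRC2 (gene7260), a core protein of the complex, had the lowest adjusted p of all members across states (0.00043). Its values were 13.73, 13.77, 13.82 and 13.92 in SA and 13.13, 13.13, 13.26, 13.32 and 13.39 in IBA. None of the 4 SA animals tested came within the IBA range. SpD animals had 13.29, 13.49, 13.52, 13.73 and 13.76, Ent animals 13.34, 13.34, 13.46, 13.51 and 13.56 and EAr animals 13.33, 13.39, 13.42, 13.47 and 13.60. LAr values were 13.31, 13.38, 13.39, 13.43 and 13.55, while K113 had 12.90 and K137 13.21, the latter within the IBA range. Of the SpD animals, K130 was the lowest and within the IBA range. UQCRC2 was lower in IBA than in SA, with a log2 difference of -0.62 ± 0.094 (SE; adjusted p = 8.3e-05; 0.018 on all 31 animals), so that its transcript decreased by 35%. It was higher in SpD than in IBA, with a log2 difference of 0.31 ± 0.08 (SE; adjusted p = 0.012).

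UQCRFS1 (gene13576) encodes the Rieske iron-sulfur protein, which hands electrons on toward cytochrome c. SA animals had 13.19, 13.33, 13.34 and 13.45 and IBA animals 12.66, 12.73, 12.86, 12.88 and 12.92. The groups did not overlap. SpD animals had 12.89, 12.99, 13.02, 13.19 and 13.20, Ent animals 12.74, 12.84, 12.99, 13.05 and 13.08, EAr animals 12.79, 12.81, 12.82, 12.94 and 13.03 and LAr animals 12.78, 12.91, 12.92, 12.97 and 13.16. K137 had 12.79 and K113 12.47. The lowest SA animal was about level with the 2 highest SpD animals, and both outliers lay among or below the IBA animals. The IBA/SA difference was -0.56 ± 0.097 (SE; adjusted p = 0.0003; 0.026 on all 31). A second row under this symbol differed by -0.35 in the same comparison (adjusted p = 0.0071), and reads may be shared between them. The other core protein, UQCRC1, had -0.42 (adjusted p = 0.00059) and UQCRB -0.33 (adjusted p = 0.036). The small subunits UQCR10 and UQCRQ, with -0.19 and -0.09, were not called.

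**Figure D2:**
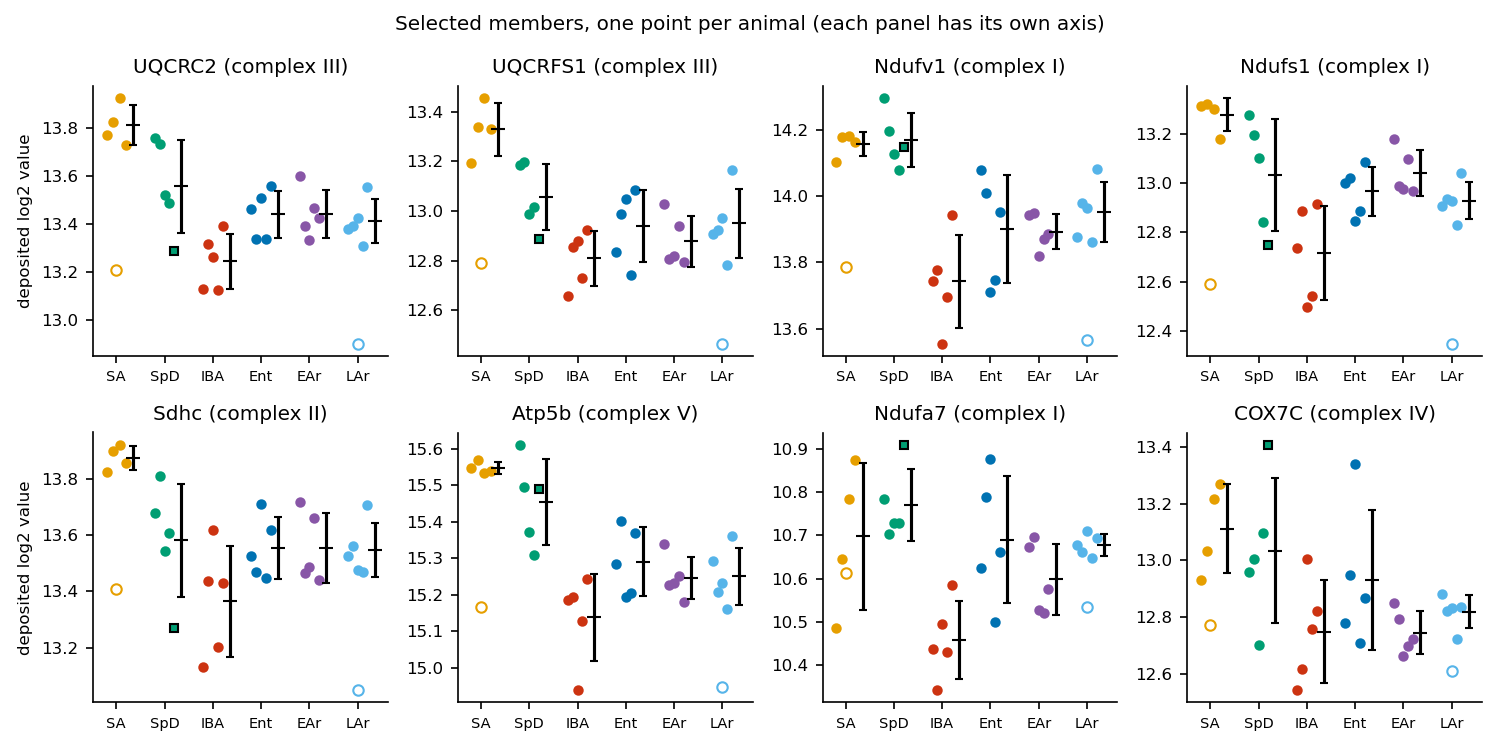
Deposited log2 values of 8 members in each animal by state, with the mean and SD of the 29 animals tested as bars, K137 and K113 as open circles and K130 as a square. The 4 SA animals tested lie above all IBA animals for UQCRC2, UQCRFS1, Ndufv1, Ndufs1, Sdhc and Atp5b, but the 2 states overlap for Ndufa7 and COX7C, and each panel has its own axis that does not start at 0.

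Complex IV, cytochrome c oxidase, had the fewest called members in IBA/SA. Of its 11 members 1, Ndufa4, was lower in IBA than in SA at 0.05 (-0.45 ± 0.16, SE; adjusted p = 0.046), and the median difference was -0.20. Across the 6 states, COX7B and COX7C, small subunits of the oxidase, were called at 0.05 (adjusted p = 0.02 and 0.044). COX7C (gene19) had 12.93, 13.03, 13.22 and 13.27 in SA and 12.70, 12.96, 13.00, 13.10 and 13.41 in SpD. IBA animals had 12.54, 12.62, 12.76, 12.82 and 13.01, and Ent animals 12.71, 12.78, 12.87, 12.95 and 13.34. EAr animals had 12.67, 12.70, 12.72, 12.80 and 12.85 and LAr animals 12.73, 12.82, 12.83, 12.84 and 12.88. K130 in SpD and K8 in Ent were the highest animals of all, and all 5 EAr animals were below the lowest of the 4 SA animals tested. K137 had 12.77 and K113 12.61, and K137 was thus below 2 of the EAr animals. The COX7C difference in IBA/SA was -0.33 ± 0.13 (SE; adjusted p = 0.075). COX5A, COX6C and COX8A had differences between -0.14 and -0.08. COX7A2L was at 0.22 (adjusted p = 0.24). Isoforms typical of muscle, COX6A2, COX7A1 and COX8B, were not among the 73 symbols.

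Complex V had 7 of 17 members lower in IBA than in SA at 0.05, 0 of them at 0.001, with a median log2 difference of -0.28. Atp5b (gene18114), the catalytic beta subunit, had 15.53, 15.54, 15.55 and 15.57 in SA and 14.94, 15.13, 15.19, 15.19 and 15.24 in IBA. The 4 SA animals lay closer together than those of any other state shown, and all were above the IBA animals. SpD animals had 15.31, 15.37, 15.49, 15.49 and 15.61, all above IBA. Ent values were 15.19, 15.21, 15.28, 15.37 and 15.40, EAr values 15.18, 15.23, 15.23, 15.25 and 15.34 and LAr values 15.16, 15.21, 15.23, 15.29 and 15.36. K137 had 15.17 and K113 14.95. Every animal of the hibernation season was therefore below the 4 SA animals tested, but not below K137. Atp5b was lower in IBA than in SA, with a log2 difference of -0.42 ± 0.086 (SE; adjusted p = 0.0014; 0.036 on all 31 animals), so that its transcript decreased by 25.1%.

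The alpha subunit Atp5a1 and the gamma subunit Atp5c1, which with beta form the catalytic head, had IBA/SA differences of -0.41 and -0.30 (adjusted p = 0.0035 and 0.012). In the peripheral stalk, Atp5f1 had -0.47 (adjusted p = 0.0012) and Atp5h -0.34 (adjusted p = 0.0098), whereas Atp5o had -0.08 and Atp5j -0.19, neither called. The genes Atp5g1, Atp5g2 and Atp5g3 encode the same mature c subunit of the rotor, and their differences of -0.31, -0.01 and -0.23 were not called. Atp5i, a membrane subunit, stood at 10.83 in K155 (Ent) and 10.91 in K154 (EAr), where the other 29 animals had at least 11.37.

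**Figure D3:**
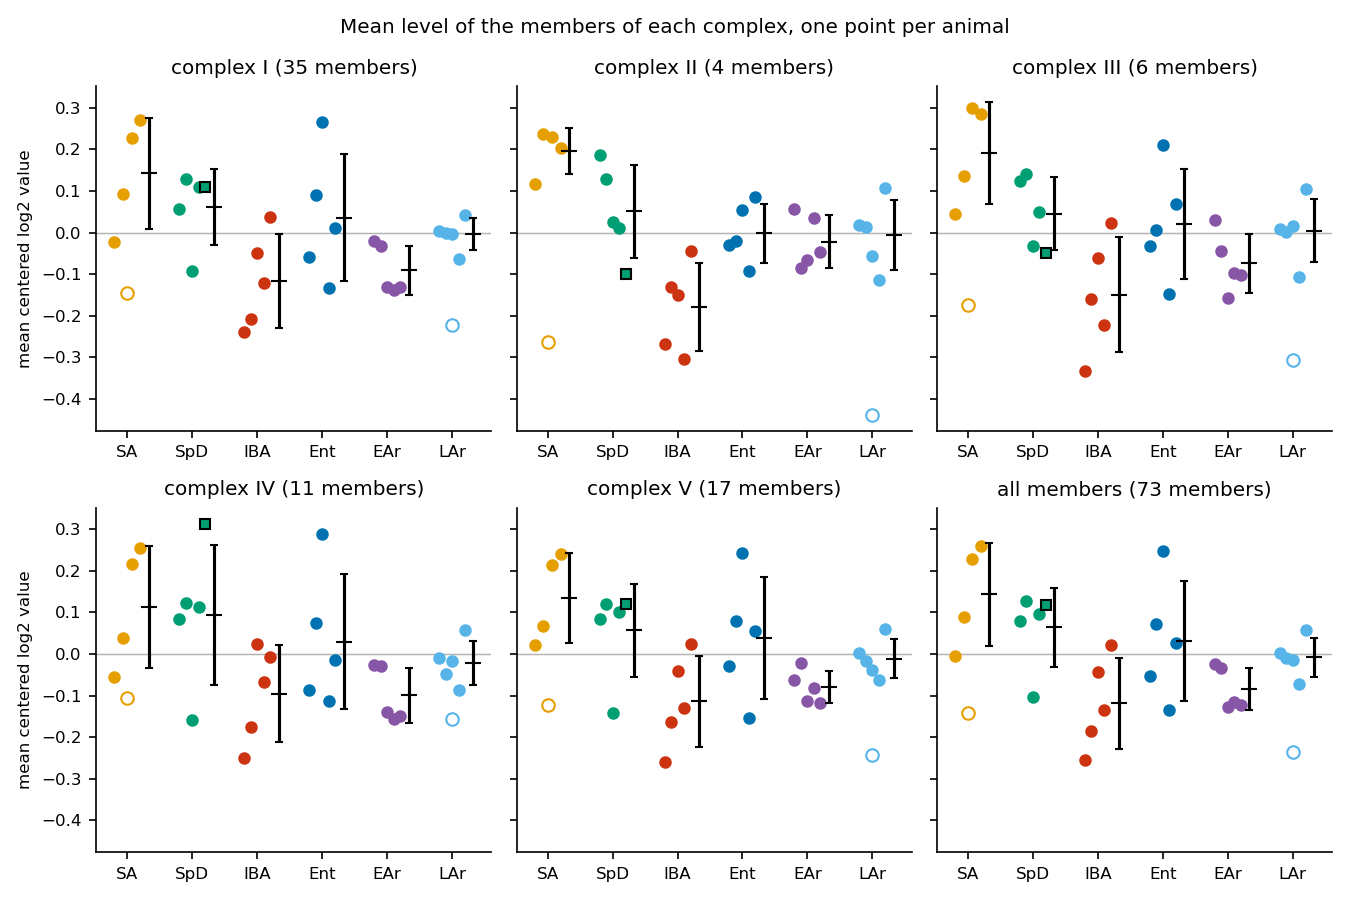
Mean over the members of each complex of the log2 value minus the member's mean over 29 animals, 1 point per animal by state, with the mean and SD of the 29 animals as bars, K137 and K113 as open circles and K130 as a square. The 4 SA animals tested lie above the IBA animals for complexes II and III, and the 2 states overlap for complexes I, IV and V, where K138 is the lowest of the 4 SA animals and K171 or K7 the highest of IBA.

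Averaged over its members, complex II was at 0.20 ± 0.055 (SD, n = 4) in SA and -0.18 ± 0.11 (SD, n = 5) in IBA on the centered log2 scale, without overlap. Complex III was at 0.19 ± 0.12 (SD, n = 4) and -0.15 ± 0.14 (SD, n = 5), also without overlap. For complexes I, IV and V the ranges met: complex IV, for example, was at -0.05 to 0.26 in SA and -0.25 to 0.03 in IBA. EAr animals were at -0.13 to -0.02 over all members, all below 0, and LAr animals at -0.07 to 0.06. The widest spread within a state was that of Ent, at -0.13 to 0.25, where K8 was the highest animal.

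K137 was at -0.14 over all members, below the other 4 SA animals, which were at -0.00 to 0.26. Of the 73 members 54 were lower in K137 than in any other SA animal, with a median difference of -0.31 from their mean, and 3 were higher than in any. K113 was at -0.24, where the other LAr animals were at -0.07 to 0.06, and 66 of its members were below all of them. In both animals Ndufs1 was the member furthest below, at -0.69 in K137 and -0.58 in K113, and COX7A2L the furthest above. With both animals included, the IBA/SA median was -0.21, and 10 members were called lower at 0.05 and 0 at 0.001.

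The proximal tubule markers moved with the SA to IBA difference. They averaged 0.34 to 0.67 in SA and -0.78 to 0.01 in IBA on the centered log2 scale, and 8 of 12 were lower in IBA at 0.05 (3 of 12 without K104, and 3 of 12 on all 31 animals). Among 12 marker lists with genes in the table, this was the only 1 in which the SA and IBA animals did not overlap. The 3 distal convoluted tubule markers had the same share called lower in IBA at 0.05 (66.7%). Their level was 0.10 to 0.55 in SA and -0.92 to 0.17 in IBA, where K171 alone reached the SA range. With the proximal tubule marker mean as a covariate, 38 members were lower in IBA than in SA at 0.05 with a median difference of -0.33, and 0 were at 0.001. The share of all genes called lower in this fit is not given here, and that of the main fit does not apply to it. Complex IV then had 6 of 11 members called rather than 1, and complex II had 2 of 4. Sdha went from -0.38 to 0.00021. SA and IBA animals did not overlap on this covariate, so these adjusted differences reach beyond marker levels that the states shared. The slope also draws on animals of other states, such as K130 (SpD) and K8 (Ent). What these counts owe to cell content was not tested.

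K130 (SpD) had the lowest proximal tubule marker level of all, at -1.24, with complex IV at 0.31 and complex II at -0.10. Relative to the other 4 SpD animals, 10 of 11 complex IV members were highest in K130, and 3 of 4 complex II members and 4 of 6 complex III members were lowest. K8 (Ent), at -0.55 on the marker scale, had 42 of the 51 members outside the core list above all other Ent animals, whereas of the 22 core subunits 9 were above and 5 below. Unlike in K130, 3 of 4 complex II members and 3 of 6 complex III members were highest in K8, and 1 and 0 were lowest. Sdha in K8 stood at 14.72 against 15.02 to 15.35 in the other Ent animals. Markers of the inner medulla (3 of 4 listed genes were in the table, without AQP4) were highest in K137 and K113, the animals left out, at 3.45 and 2.51, followed by K104 and K130 at 1.98 and 1.98. The other 27 animals were at -1.26 to 1.19, and K8 was at 0.18. The part of these markers in the member values was not tested. Of the IBA animals, K104 and K7 had the lowest proximal tubule marker levels, -0.78 and -0.68. Without K104, 20 members were called lower in IBA than in SA at 0.05 and 1 at 0.001. Calls fell over all 12863 genes as well. Those lower at 0.05 went from 1605 to 1110, and those at 0.001 in either direction from 405 to 146. Without K130, 35 members were called lower at 0.05 and 6 at 0.001.

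**Figure D4:**
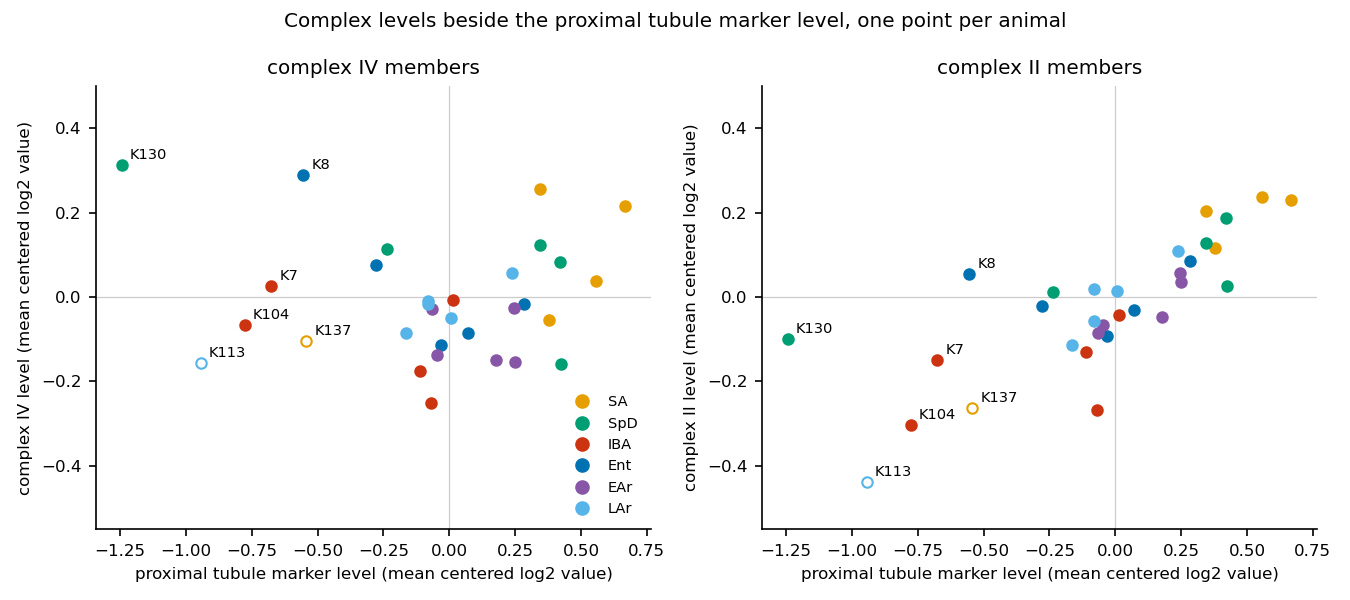
Level of the complex IV members (left) and the complex II members (right) against that of 12 proximal tubule markers, each as the mean of log2 values minus the gene's mean over 29 animals, 1 point per animal, open for K113 and K137. K130 and K8 have low markers with high complex IV levels, whereas K113, K104 and K137 have low markers and are among the 4 lowest animals for complex II.

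The spring dark kidneys stood between. Members were higher in SpD than in IBA for 69 of 73 symbols, with a median log2 difference of 0.18, or 13.0% more transcript, where that of all genes was -0.01. At 0.001, 1 member (1.37%, against 1.25% of all genes) was called, and at 0.05, 11 (15.1%, against 6.48% of all genes called higher). They comprised 6 members of complex I, UQCRC1 and UQCRC2 of complex III and Atp5a1, Atp5b and Atp5h of complex V. In 4 members (5.48%) the groups did not overlap, near the 6.51% of all genes. Ndufa7, an accessory subunit of complex I, was one of these, with 10.70, 10.73, 10.73, 10.78 and 10.91 in SpD and 10.34, 10.43, 10.44, 10.50 and 10.59 in IBA. Its difference was 0.31 ± 0.069 (SE; adjusted p = 0.0052). On all 31 animals 3 members were called at 0.05. Without K104, 5 of 73 members were called higher, beside 647 of 12863 genes, where the main fit had 834. Without K8, 22 members were called.

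Markers of the thick ascending limb and of principal cells moved in the same direction between SpD and IBA. Intercalated cell markers did not as a list, with mean log2 values of 10.562 in SpD and 10.565 in IBA. Atp6v0d2 of that list was nevertheless called at 0.05 in this comparison, and again in 41 of 42 alternatives. The 5 endothelial markers averaged 11.10 in SpD and 10.70 in IBA, and Ehd3 among them was called at 0.05 (in 40 of 42 alternatives). The medians were 0.58 for 4 thick ascending limb markers and 0.70 for 5 principal cell markers, with 1 of each list called higher at 0.05, and 2 and 3 without K104. Of the 12 proximal tubule markers 1 was called higher, and 4 without K130. The part of these lists in the member differences was not tested.

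SA and SpD, the warm states on either side of hibernation, had few members called. Members were higher in SA for 57 of 73 symbols, with a median of 0.08. At 0.05, 3 members, Sdhc, UQCRC2 and UQCRFS1, were higher in SA (4.11%, against 5.47% of all genes), and 0 were called at 0.001, where limma called 0.0544% of all genes and 9 members had an unadjusted p below 0.05. UQCRFS1 had a log2 difference of 0.32 ± 0.097 (SE; adjusted p = 0.04). With K137 and K113 included, 0 members were called at 0.05, with 2 at an unadjusted p below 0.05. Leaving out 1 animal gave 0 without K130, K139 or K140, 1 without K4, K9, K84, K104, K141 or K155, 5 without K167 and 6 without K171.

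Within the torpor-arousal cycle fewer members were called. Ent was above IBA for 70 of 73 members with a median log2 difference of 0.16, but limma called 3 higher at 0.05 (4.11%, against 5.52% of all genes) and 0 at 0.001 (0.746% of all genes), with 26 at an unadjusted p below 0.05. The 3 were Ndufa7 (0.23 ± 0.069, SE), Sdhb (0.22 ± 0.063) and UQCRC1 (0.19 ± 0.065), with adjusted p of 0.03, 0.026 and 0.05. UQCRC1 was called in 9 of 42 alternatives. Of the 3, Ndufa7 alone was called on all 31 animals. With 1 animal left out the count was 0 without K1, K4, K104 or K167, 1 without K8, 5 without K7 or K130 and 13 without K155 or K171. Within experiment 2, which held 2 animals of each state, the median was 0.02, with 43 members above and 30 below 0. From LAr to IBA, the end of rewarming, 68 members were lower in IBA with a median of -0.10. Ndufa10, Ndufa7 and Sdhb were called at 0.05 (4.11%, against 8.03% of all genes called lower), and 0 at 0.001 (1.43% of all genes), with 12 at an unadjusted p below 0.05. With both outliers included 0 were called at 0.05, and 4 had an unadjusted p below 0.05. With 1 animal left out the count was 0 without K104 or K116, 1 without K111 or K112, 7 without K167, 8 without K8 and 12 without K171.

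Between Ent and EAr, which bracket torpor, limma called 0 members at 0.05 and at 0.001, where 0.257% and 0.132% of all genes were called. At an unadjusted p below 0.05 there were 4, and the median was -0.13. Between EAr and LAr, the rewarming kidneys, it again called 0 at both, against 0.575% and 0.295% of all genes, with 3 at an unadjusted p below 0.05 and a median of 0.07. Both comparisons on all 31 animals had 0 members called and 2 at an unadjusted p below 0.05. IBA/SA, Ent/IBA, SpD/IBA and IBA/LAr share the same 5 IBA animals, so their directions are not independent of each other.

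**Figure D5:**
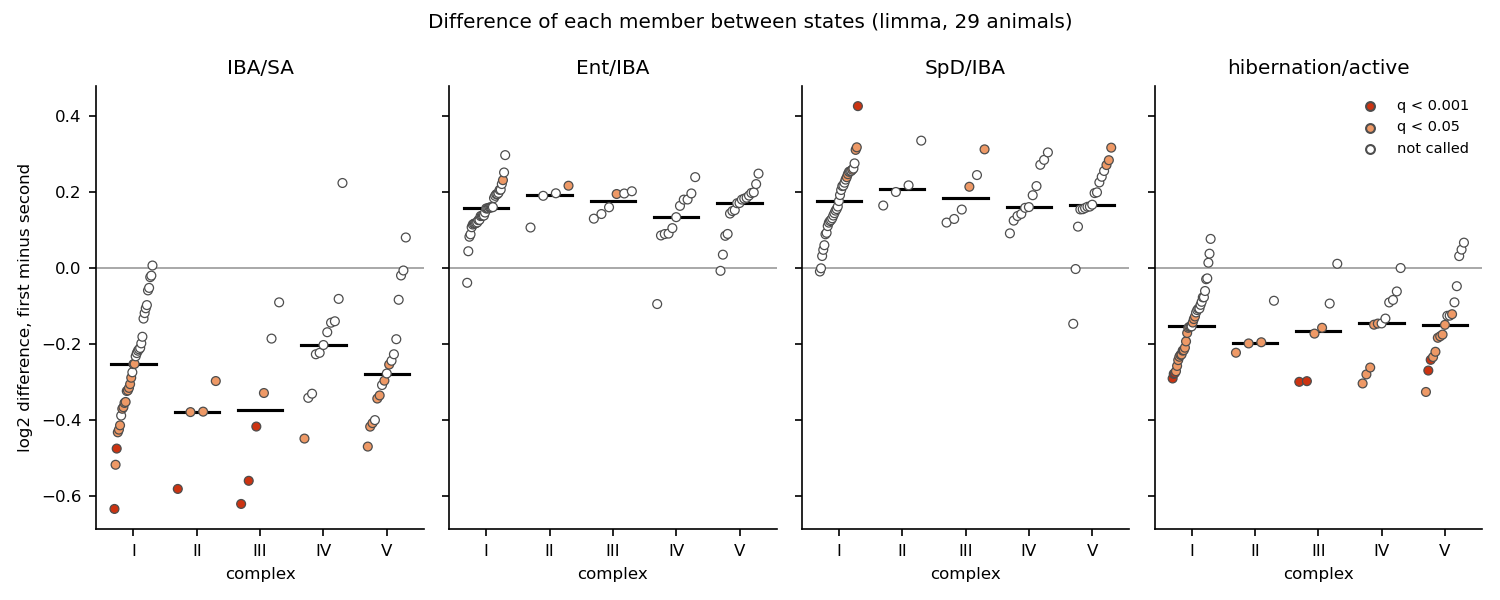
Log2 difference of each of the 73 members (points, by complex) in 4 comparisons, the first state minus the second, from the limma fit on 29 animals, coloured by adjusted p (q) and with the median of each complex as a line. Nearly all members are below 0 in IBA/SA and above 0 in Ent/IBA and SpD/IBA, which share the IBA animals.

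Taking the 4 hibernation states against SA and SpD, members were lower in hibernation for 65 of 73 symbols, with a median log2 difference of -0.15, at which a transcript decreased by 9.84%, where that of all genes was near 0. At 0.001, 8 were called (11.0%, near the 9.73% of all genes), and at 0.05, 41 were called lower (56.2%, against 16.8% of all genes), and 0 higher. Those at 0.001 were Ndufv1, Ndufs8, Ndufb11 and Ndufs6 of complex I, UQCRC2 and UQCRFS1 of complex III and Atp5b and Atp5h of complex V. The largest called decrease was that of Atp5i (-0.33 ± 0.1, SE; adjusted p = 0.018), to which K154 and K155 contributed the lowest values. By complex, 19 of 35, 3 of 4, 4 of 6, 5 of 11 and 10 of 17 members of complexes I to V were called at 0.05. On all 31 animals 29 members were called at 0.05 and 0 at 0.001. Within experiment 2, 47 were called lower at 0.05 and 10 at 0.001. Leaving out 1 animal gave 4 at 0.001 without K140 and 19 without K8.

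Marker lists of other cell types also differed between hibernation and the active states. Endothelial markers were lower in 4 of 5 genes at 0.05 (median -0.31), thick ascending limb markers in 2 of 4 (-0.47), principal cell markers in 2 of 5 (-0.29) and proximal tubule markers in 4 of 12 (-0.25). Fibroblast markers had mean log2 values of 10.08 in SA and 10.12 in SpD, against 9.77, 9.64, 9.61 and 9.17 in IBA, Ent, EAr and LAr. Genes of other lists were also called at 0.05, such as Pdgfra and Col1a1 (fibroblast) and Atp6v0d2 and Slc4a1 (intercalated cell). The endothelial level was -0.14 to 0.32 in SA and 0.03 to 0.58 in SpD, against -0.39 to 0.21 in IBA, -0.22 to 0.31 in Ent, -0.37 to -0.20 in EAr and -0.35 to 0.07 in LAr on the centered log2 scale. Within experiment 2 the median of the proximal tubule markers was 0.31, with 4 higher and 1 lower in hibernation. The SpD animals of that experiment, K84 and K130, had marker levels of -0.24 and -1.24. Those of experiment 1 were at 0.34 to 0.43. The part of these lists in the member differences was not tested.

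Genes around the chain were read from lists chosen with earlier results known, and their shares stand beside the 12.5% of all genes called lower and the 10.4% called higher in IBA than in SA. The TCA cycle, which supplies NADH and succinate, had 12 of 16 genes (75.0%) lower in IBA than in SA at 0.05 and 0 higher, with a median of -0.42. Fumarase, Fh, was lower, with a log2 difference of -0.58 ± 0.087 (SE; adjusted p = 7.3e-05; 0.029 on all 31 animals) and Suclg1, a subunit of succinyl-CoA ligase, had -0.69 ± 0.12 (adjusted p = 0.00025; 0.016 on all 31). Of 38 assembly factors, which build the complexes without remaining in them, 8 (21.1%) were lower and 0 higher, with COX15, needed for heme A of complex IV, at -0.57 ± 0.087 (adjusted p = 8.7e-05; 0.016 on all 31). Of 77 mitochondrial ribosomal proteins, 12 (15.6%, near the share of all genes) were lower and 0 higher, with a median of -0.10. On all 31 animals these 3 lists had 5, 4 and 6 genes called lower, and without K104 7, 7 and 7.

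Of 13 electron carriers and subunits outside the symbol rule, 5 (38.5%) were lower and 2 (15.4%) higher in IBA than in SA. Cytochrome c, CYCS, was lower in hibernation, with a log2 difference of -0.44 ± 0.074 (SE; adjusted p = 8.5e-05; 0.00024 on all 31). Gpd2, the mitochondrial glycerol-3-phosphate dehydrogenase, which feeds electrons to ubiquinone without complex I, was higher in hibernation, with a log2 difference of 0.40 ± 0.049 (SE; adjusted p = 2.4e-06; 1.8e-06 on all 31). COX4I1, a large nuclear subunit of complex IV, and CYC1, cytochrome c1 of complex III, were not called across states (adjusted p = 0.22 and 0.32). Among 29 nuclear regulators and factors of mitochondrial DNA expression, 3 were lower and 3 higher in IBA than in SA (10.3% each), with 1 lower and 2 higher both on all 31 animals and without K104. Ppargc1a, a coactivator of mitochondrial genes, was lower in hibernation, with a log2 difference of -0.27 ± 0.074 (adjusted p = 0.0067; 0.013 on all 31), with an IBA/SA difference of -0.08 that was not called. Nrf1, Gabpa and Tfam, factors that act on promoters of the chain or on mitochondrial DNA, were not called across states (adjusted p = 0.11, 0.48 and 0.3). Esrra, another regulator, and Polg2 of this list were called across states at 0.05, in the main fit and in all 41 alternatives. Both were also called between hibernation and the active states, and again in 34 and 41 of 41 alternatives. Sirt3, a mitochondrial deacetylase, was lower in IBA than in SA, with a log2 difference of -0.55 ± 0.086 (adjusted p = 0.00011; 0.0023 on all 31) and higher in SpD than in IBA, with a log2 difference of 0.46 ± 0.073 (adjusted p = 0.0003; 0.0017 on all 31).

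Some members lie close together in the genome. Of the 73, 72 matched 1 gene of the RefSeq annotation of assembly mIctTri1.hap1, which is not the build of the files and was used for neighbours alone. Ndufs8 and Ndufv1 had 7 protein-coding genes between them, and Atp5d and Ndufs7 5. In IBA/SA both genes of the first pair were called lower at 0.05, and of the other pair Atp5d was (-0.25, adjusted p = 0.044).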

How the data were processed

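RNA-Seq of poly(A) RNA from 31 kidneys was analysed from 1 deposited table. Per the study's methods, the authors trimmed reads with cutadapt, removed reads that mapped to the mitochondrial genome with HISAT2, quantified the rest with Salmon on the HiC_Itri_2 genome, kept genes above a minimum rlog value, and removed the batch effect of the 2 experiments with limma. The deposited values are log2 (batch-corrected rlog) of 12863 genes, so no read counts or depths were at hand and none are given. Batch correction before testing can move differences between states that were sampled in 1 experiment only. The 17 members with symbols in capitals were named in the table by a match to human sequence, and how reads were split among copies of a gene was not examined.

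Values were fitted with limma 3.58.1 in R 4.3.3 (state, sex and experiment, 29 animals, intensity trend, 21 residual degrees of freedom), with tables and plots in Python. The fit was tested on simulated data. Columns of the authors' own comparisons were not in the table, and 0 columns of values were left unused.

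Members, lists and tests were chosen with earlier results of these data known. Members named were those with the lowest adjusted p per complex across states, the largest called changes per comparison, the core subunits and isoform groups, with a set of regulators and carriers, and 1 member that this rule names is counted but not reported here by name. Alternatives changed the animals, model terms, variance prior, weights, experiments, low-value filter, centering, a cell marker covariate and each animal in turn.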

Additional observations from a re-analysis of the deposited data

Results flagged for a closer look

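In 120 groups of 4 or 5 animals (levels of the complexes and of the members named across states), 4 had 1 animal set apart from the rest by more than Dixon's 95% limit, where chance gives about 5%. K9 (SpD) was below the other SpD animals for the complex V level, at -0.14 against 0.08 to 0.12, and for the level of all members, at -0.10 against 0.08 to 0.13. K9 also had the lowest Atp5h value of its group, 12.35 against 12.58 to 12.68. K141 (SA) had an Ndufs1 value of 13.18 against 13.30 to 13.32 in the other SA animals.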

How the results depend on the processing

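The direction of the median member difference was the same under every alternative run for IBA/SA, SpD/IBA and hibernation/active. Depth is unknown, and the number of animals limits the precision. The counts below are members at an adjusted p below 0.001, with those at 0.05 second where given, and the cause of each change was not tested unless the setting itself removes animals.

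With all 31 animals, across states there were 0 and 10, for IBA/SA 0 and 10, for SpD/IBA 0 and 3, and for hibernation/active 0. Adding back K137 alone (K113 left out, a setting chosen after seeing the data) gave 0 and 11 across states, 0 and 12 for IBA/SA, 0 and 5 for SpD/IBA and 1 for hibernation/active. Adding back K113 alone (also chosen after seeing the data) gave 0 across states, 1 for IBA/SA, and 0 and 7 for SpD/IBA. Weighting animals gave 22 and 59 across states, 10 and 52 for IBA/SA, 1 for Ent/IBA, 2 and 38 for SpD/IBA, and 23 for hibernation/active. With only the 2 groups compared in the fit there were 0 and 0 for IBA/SA and 0 and 2 for SpD/IBA. Experiment 2 alone, with 2 IBA animals, gave 0 at 0.001 for IBA/SA and 0 and 4 for SpD/IBA. In IBA/SA there, Ndufs1, UQCRC2 and Sdhc were still called at 0.05 (adjusted p = 0.0026, 0.0028 and 0.0035). Sdhb, Ndufs8 and Sdha were not (adjusted p = 0.057, 0.068 and 0.076). The proximal tubule marker covariate gave 0 for IBA/SA and 23 at 0.05 for SpD/IBA. Centering animals to a common median gave 5 for hibernation/active. At 0.05 in place of 0.001 the main counts were 29 across states, 32 for IBA/SA, 3 for SA/SpD, Ent/IBA and IBA/LAr, 11 for SpD/IBA and 41 for hibernation/active.

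For the comparisons with 3 or 0 members at 0.05, the counts at 0.05 were as follows. SA/SpD had 0 with all 31 animals, with either K113 or K137 added back, without the experiment term, with weights and with the marker covariate, 1 with only the 2 groups and 7 within experiment 2. Ent/IBA had 1 with all 31 animals or either one added back, 0 within experiment 2 and with only the 2 groups, 8 after centering, 9 with the marker covariate and 18 with weights. IBA/LAr had 0 with all 31 animals, with K113 added back, within experiment 2 and with only the 2 groups, 1 with K137 added back or the marker covariate, 5 without the intensity trend, 8 after centering and 14 with weights. LAr/EAr had 1 with weights and 1 with only the 2 groups.

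Leaving out each animal in turn gave 0 to 7 at 0.001 and 24 to 40 at 0.05 across states, 1 to 9 and 20 to 37 for IBA/SA, 0 to 1 and 5 to 22 for SpD/IBA, and 4 to 19 and 29 to 50 for hibernation/active, and 0 to 0 at 0.001 for SA/SpD, Ent/IBA, EAr/Ent, LAr/EAr and IBA/LAr. At 0.05 it gave 0 to 6 for SA/SpD, 0 to 13 for Ent/IBA, 0 to 12 for IBA/LAr and 0 to 0 for EAr/Ent and LAr/EAr. The lowest counts for IBA/SA came without K104. Of the changes of single members, UQCRC1 in SpD/IBA went to -0.0027 within experiment 2, and Sdha in IBA/SA to 0.00021 with the marker covariate.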
